A study of Mus musculus with 12 samples.

Results

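The MHC class I pathway and its immunoproteasome were examined in pancreatic islets of 4 mouse genotypes through 10 listed genes: the class I heavy chains H2-K1 and H2-D1, the light chain B2m, the peptide transporter subunits Tap1 and Tap2, the loading factor Tapbp, the immunoproteasome subunits Psmb8, Psmb9 and Psmb10, and the transactivator Nlrc5. Probes were assigned by matching the RefSeq accession that the scanner files give for each probe to a gene symbol. This gave 9 of the 10 genes a probe, 15 probes in all of the 41174 on the array, and no probe was named for Nlrc5, which is not analysed here. All 15 probes were well above background on all 12 arrays.

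Cy3-labelled RNA from islets was hybridised to 12 Agilent 4x44K arrays in 1 colour, 3 per genotype. The genotypes were WT, PPARγ2KO (no PPARγ2, the nutrient-regulated isoform of the adipogenic nuclear receptor PPARγ), ob/ob (no functional leptin, the adipocyte hormone that restrains feeding) and POKO (labelled DKO, lacking both). All mice were on a C57BL/6 x Sv129 background, ate chow and were 4 weeks old by the labels, while the study's text gives a later age, and the text also states that the mice were female. The islets were picked by hand after collagenase digestion and cultured overnight. The RNA of several mice was pooled for each array, so the spread within a genotype is between arrays of pools and not between animals. The PPARγ2 and leptin losses are constitutive and not restricted to the islet. Below, ob/ob and POKO are called leptin-deficient, and WT and PPARγ2KO leptin-intact.

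Class I molecules carry peptides of cytosolic proteins to the cell surface, where CD8 T cells read them. In outline, the proteasome cuts the protein, the Tap1-Tap2 transporter moves the peptides into the endoplasmic reticulum, tapasin (the product of Tapbp) and chaperones hold the empty heavy chain until a peptide fits, and the heavy chain leaves the compartment together with β2-microglobulin, the product of B2m. Interferons raise most of these genes, and replace the constitutive catalytic proteasome subunits by the immunosubunits encoded by Psmb8, Psmb9 and Psmb10. Beta cells express class I, and its increase on islet cells is a known feature of autoimmune diabetes.

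On the mouse genome (GRCm38.p6, RefSeq annotation) 7 of the 10 genes lie on chromosome 17. Tapbp (chr17:33919478-33929290) and H2-K1 (chr17:33996012-34000619) come first, followed by the block of Psmb9 (chr17:34182030-34187330), Tap1 (chr17:34187556-34197225), Psmb8 (chr17:34198195-34201454) and Tap2 (chr17:34204479-34216321), and then by H2-D1 (chr17:35263094-35267497). B2m lies at chr2:122147687-122153082, Psmb10 at chr8:105935728-105938392 and Nlrc5 at chr8:94434335-94527272. Psmb9 and Tap1 are transcribed away from each other, and their annotated starts are 226 bases apart.

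Promoter windows of 300 bases (250 before and 50 after the annotated start, from RefSeq, GRCm38.p6) matched 8 of the 10 genes by symbol, and none was matched for Tap2 or Nlrc5. The windows of the heavy chains and of B2m are shown because they hold the letters of the interferon and NF-κB response elements for which class I promoters are known, and that of Psmb9 because it overlaps the window of Tap1 by 275 bases. The H2-K1 window is chr17:34000284-34000583 (minus strand), that of H2-D1 chr17:35262844-35263143 (plus strand), that of B2m chr2:122147437-122147736 (plus strand) and that of Psmb9 chr17:34187281-34187580 (minus strand). Each is written 5′ to 3′ on the strand of its gene, and capitals mark matches to the NF-κB motif, to GAANNGAAA or to the canonical ISRE motif on either strand, of which the Psmb9 window has none.
H2-K1: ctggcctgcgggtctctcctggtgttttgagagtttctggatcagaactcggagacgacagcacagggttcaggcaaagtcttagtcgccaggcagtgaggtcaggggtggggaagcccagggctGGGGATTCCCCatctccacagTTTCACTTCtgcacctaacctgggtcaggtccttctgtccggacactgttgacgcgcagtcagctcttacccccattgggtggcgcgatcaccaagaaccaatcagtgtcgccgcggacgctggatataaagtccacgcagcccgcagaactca
H2-D1: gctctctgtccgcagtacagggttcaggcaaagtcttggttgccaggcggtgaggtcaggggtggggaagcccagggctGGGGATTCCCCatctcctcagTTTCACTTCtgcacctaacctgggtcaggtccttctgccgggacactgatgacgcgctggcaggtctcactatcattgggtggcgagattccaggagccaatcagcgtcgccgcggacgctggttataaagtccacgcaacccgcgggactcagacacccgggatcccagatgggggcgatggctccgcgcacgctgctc
B2m: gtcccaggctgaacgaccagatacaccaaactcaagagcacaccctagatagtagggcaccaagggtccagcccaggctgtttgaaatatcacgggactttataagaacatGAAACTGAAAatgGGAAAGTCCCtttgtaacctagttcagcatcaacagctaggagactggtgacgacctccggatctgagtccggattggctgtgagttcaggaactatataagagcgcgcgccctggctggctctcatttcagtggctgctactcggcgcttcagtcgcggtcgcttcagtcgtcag
Psmb9: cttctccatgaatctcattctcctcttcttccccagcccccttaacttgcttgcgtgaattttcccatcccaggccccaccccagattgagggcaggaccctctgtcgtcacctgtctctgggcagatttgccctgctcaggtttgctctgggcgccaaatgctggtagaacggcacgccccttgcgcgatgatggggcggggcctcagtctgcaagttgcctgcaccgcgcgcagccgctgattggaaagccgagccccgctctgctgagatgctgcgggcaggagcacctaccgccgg

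The ISRE-like letters GAANNGAAA stand in the H2-K1 and H2-D1 windows (on the strand opposite to that of the gene), and 7.52% of all 32851 promoter windows hold them. The canonical ISRE motif, which is longer by 1 base, stands in the B2m window at -139 to -130 from the start, and in 3.44% of all windows. The NF-κB motif matches in H2-K1, H2-D1 and B2m, against 8.46% of all windows. In both heavy chain genes the NF-κB letters match at 2 overlapping positions, upstream of the ISRE-like letters. H2-K1 has another annotated start, whose window (chr17:34000298-34000597) holds the same matches. GAANNGAAA and the NF-κB motif together stand in 0.53% of all windows. The letters TGACGC, which are the shorter cAMP response element core TGACG followed by C, are in the H2-K1 and H2-D1 windows and in 7.4% of all windows. TGACG on either strand also stands in the B2m, Tap1 and Psmb9 windows, and its share of all windows was not computed. The GAS letters TTCNNNGAA are in the Psmb8 window, at -97 to -89, and in 8.3% of all windows. Apart from TGACG, none of these motifs was found in the windows of Tap1, Tapbp, Psmb9 or Psmb10. A match is a description of letters and not a measurement of binding, and the motif spellings were chosen with these windows in view.

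Before the comparisons, several properties of the arrays matter. Pparg, measured by 1 probe whose position relative to the deleted part is not given in the sources used here, was between 6.41 and 7.44 (log2 of the normalized signal) on the 6 PPARγ2-null arrays and between 8.54 and 9.77 on the 6 intact arrays, so every null array lay below every intact one. Lep was near the floor everywhere (1.25 to 1.42) and checks nothing. The share of spots well above background was 54.3 to 57.5% in WT, 57.1 to 60.9% in PPARγ2KO, 60.4 to 64.9% in ob/ob and 61.4 to 61.5% in POKO, so the arrays of the leptin-deficient genotypes had the most detected spots, apart from an overlap with PPARγ2KO. Leukocyte genes differed too. The summed signal of 8 pan leukocyte genes was 689 to 949 in WT, 8580 to 10480 in ob/ob and 6299 to 11810 in POKO, and in PPARγ2KO it was 736, 7579 and 1072, so PPARγ2KO replicate 2 stood apart from the other leptin-intact arrays. Beta cell genes were present on all arrays (8 or 9 of 9 measured markers above background), with summed signals of 633800 to 942100. The 9 measured acinar enzyme genes were also above background on every array. Their summed signals of 1955000 to 2414000 overlapped between the genotypes and were above the beta cell sums on every array. The part of acinar RNA in the results was not tested.

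ob/ob vs. WT islets asks what leptin deficiency changes while PPARγ2 is intact. Psmb9, Psmb8 and B2m rose 3.90-, 3.39- and 2.99-fold, and none of the 9 genes was lower in ob/ob. A gene was called where its brightest probe had an adjusted p of at most 0.05 (limma, Benjamini-Hochberg over all probes) and a change of at least 2-fold. By that rule 3 of 9 genes were called higher, against 3.56% of all probes. With the adjusted p alone 6 of 9 passed, against 4.92%, the additional genes being H2-D1, Tap2 and Tapbp, and all 9 had an unadjusted p under 0.05, against 12.3%. The median log2 fold change of the 9 genes was 0.89, and that of all named genes was -0.06. For all 9 genes the 3 ob/ob arrays lay above the 3 WT arrays, against 11.3% of all probes. In RNA of whole islets, fewer or more cells of a type and less or more RNA per cell cannot be told apart.

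Of the immunosubunits, Psmb9 and Psmb8 had the largest changes of the 9 genes and Psmb10 the smallest. Psmb9, the β1i subunit, read 9.02, 9.29 and 9.89 in WT and 11.01, 11.38 and 11.70 in ob/ob (log2 signal). Its log2 fold change was 1.96 ± 0.32 (SE, n = 3 per group, limma adjusted p = 0.0177). Every ob/ob array was more than 1 log2 unit above the highest WT array. Psmb8, the β5i subunit, read 9.92, 9.94 and 10.88 in WT and 11.90, 12.05 and 12.07 in ob/ob. Its log2 fold change was 1.76 ± 0.30 (adjusted p = 0.0200), and a separate probe of Psmb8 gave 1.93 (adjusted p = 0.0144). WT replicate 3 was the highest WT array for both subunits. Psmb10, the β2i subunit, read 13.52, 13.19 and 13.44 in WT and 13.67, 13.79 and 13.64 in ob/ob, a log2 fold change of 0.32 ± 0.12 that did not pass (adjusted p = 0.113). With arrays shifted to their 75th percentile in place of quantiles, Psmb10 differed by 0.03 (adjusted p = 0.915).

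B2m, the light chain shared by all classical class I molecules, read 11.34, 11.06 and 11.51 in WT and 13.27, 12.72 and 12.67 in ob/ob. The groups were more than 1 log2 unit apart, with a difference of 1.58 ± 0.26 (adjusted p = 0.0181), or 1.47 (adjusted p = 0.0165) on a separate probe. The heavy chains had smaller differences. H2-D1 read 14.24, 14.25 and 14.54 in WT and 15.33, 15.06 and 15.13 in ob/ob, higher by 0.83 ± 0.21 on the log2 scale (adjusted p = 0.0376), and its dimmer probe gave 0.68 (adjusted p = 0.0846). H2-K1 read 14.64, 14.71 and 14.99 in WT and 15.91, 15.42 and 15.22 in ob/ob, 0.74 ± 0.22 with an adjusted p of 0.0613. The 3 H2-K1 probes disagreed on the call, since the other 2 gave 1.23 (adjusted p = 0.0371) and 0.68 (adjusted p = 0.117). Class I heavy chain genes are similar in sequence, probe sequences were not used here, and a probe of one may also bind transcripts of another.

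The transporter and loading genes differed by less than 2-fold. Tap2 read 9.26, 9.02 and 9.37 in WT and 10.19, 10.06 and 10.05 in ob/ob, a log2 fold change of 0.89 ± 0.23 (adjusted p = 0.0431). Tapbp read 12.71, 12.84 and 13.55 in WT and 13.94, 14.06 and 13.77 in ob/ob, also 0.89 ± 0.23 (adjusted p = 0.0431), while its dimmer probe gave 0.64 and did not pass (adjusted p = 0.265). Tap1 read 8.67, 8.36 and 8.49 in WT and 9.46, 9.19 and 9.51 in ob/ob, 0.88 ± 0.27 with an adjusted p of 0.0613. The 2 transporter subunits therefore differed from WT by nearly the same amount, on either side of the threshold. The calls depend on single arrays: without WT replicate 1, WT replicate 2 or ob/ob replicate 2, 0 of the 9 genes were called, without ob/ob replicate 3 only B2m was, and without WT replicate 3 Tapbp joined the 3. The calls over all probes moved in the same fits: 1467 probes were called higher with all arrays, and 248, 101, 215, 233 and 2369 without these arrays in the order given. Over all 12 fits with 1 array left out, the log2 fold changes of B2m, Psmb8 and Psmb9 stayed between 1.39 and 2.21 with adjusted p of at most 0.0795.

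**Figure D1:**
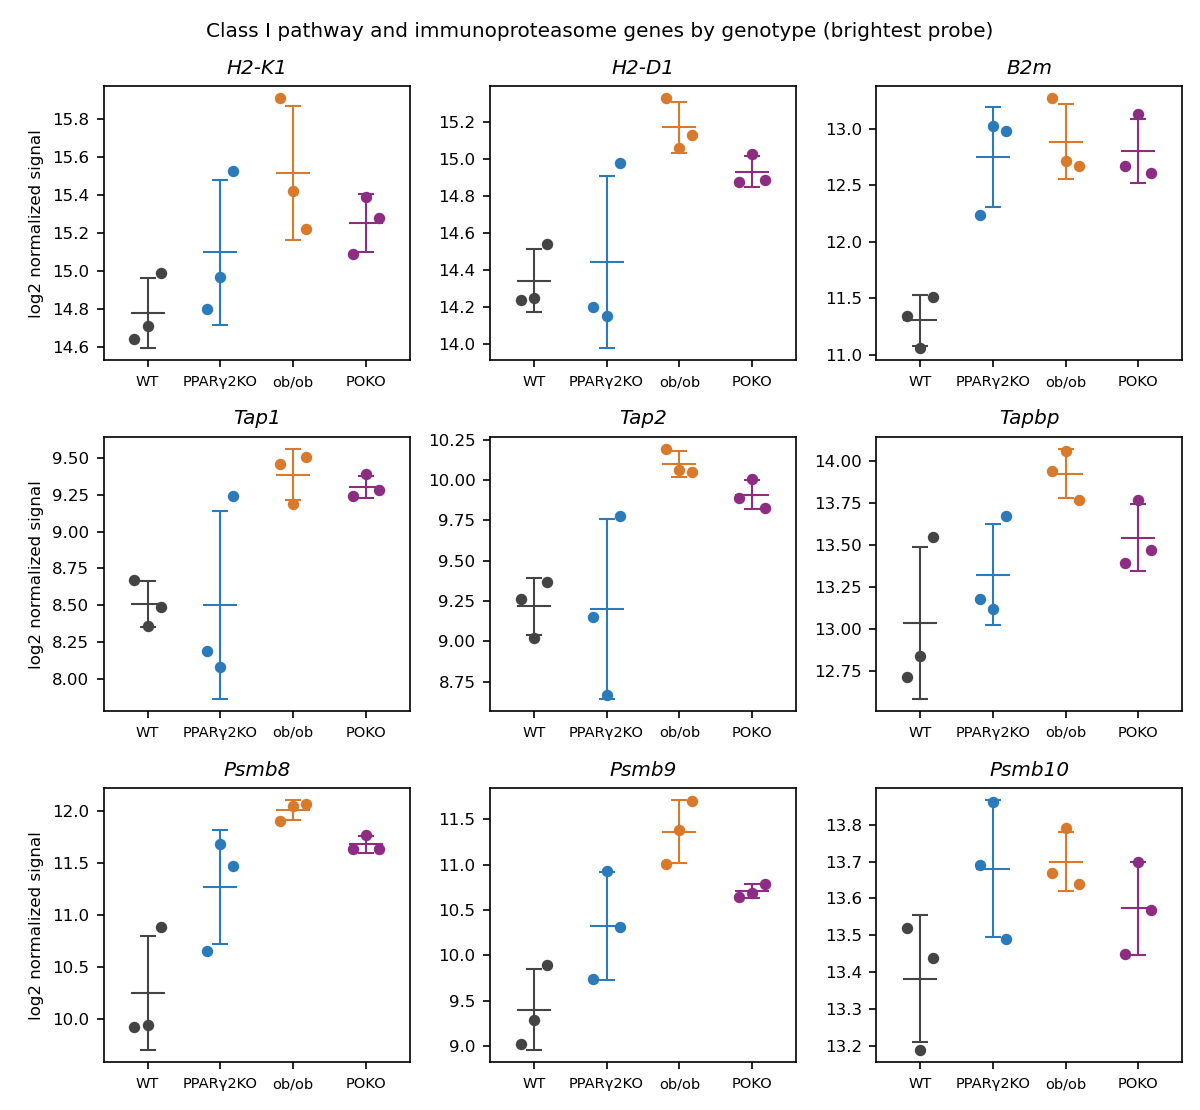
Log2 normalized signal of the brightest probe of each gene (y axis, a separate scale in each panel) in the 4 genotypes (x axis). Points are arrays in the order of replicates 1 to 3, horizontal marks are means and bars are SDs (n = 3). In all 9 panels the ob/ob arrays lie above the WT arrays, and the PPARγ2KO arrays overlap with WT in all panels but that of B2m.

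POKO vs. WT islets asks what both losses change together. The same WT arrays serve in this comparison, and the values are set beside those of ob/ob for that reason only. All 9 genes were higher in POKO on average, by 0.19 (Psmb10) to 1.50 (B2m) on the log2 scale with a median of 0.70, but limma called 0 of 9, against 0.151% of all probes called higher. At an unadjusted p under 0.05, 6 of 9 were higher, against 6.83% of all probes. B2m read 12.67, 13.13 and 12.61 in POKO, all above WT, with a log2 fold change of 1.50 ± 0.26 (adjusted p = 0.0638). Psmb8 read 11.63, 11.77 and 11.63, a change of 1.43 ± 0.30 (adjusted p = 0.0880), and Psmb9 read 10.64, 10.69 and 10.79, a change of 1.31 ± 0.32 (adjusted p = 0.113). These 3 genes changed by more than 2-fold and missed the threshold only on the adjusted p. For 7 of 9 genes, Tapbp and Psmb10 excepted, the POKO arrays lay above all WT arrays, against 9.22% of all probes.

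Of the transporter subunits, Tap1 differed by 0.80 ± 0.27 (adjusted p = 0.185) and Tap2 0.70 ± 0.23 (adjusted p = 0.187). H2-D1 (0.59), Tapbp (0.51) and H2-K1 (0.47) followed, with adjusted p between 0.199 and 0.334. The call was sensitive to how the adjusted p was reached. B2m and Psmb8 were called when dim probes were left out before the fit (adjusted p = 0.0280 and 0.0393), and B2m, Psmb8 and Psmb9 when arrays were weighted by their reproducibility (adjusted p = 0.0128, 0.0122 and 0.0169). B2m alone was called when only the compared genotypes were fitted (adjusted p = 0.0491) and with the authors' normalized values (adjusted p = 0.0489). Without PPARγ2KO replicate 1, or without WT replicate 3, B2m and Psmb8 were called, and without PPARγ2KO replicate 2 only B2m was. Over all probes the number called higher went from 62 of 41174 to 428 of 24309 with the filter, 1347 with array weights, 337 with only the compared genotypes and 97 with the authors' values, and to 216, 283 and 515 without PPARγ2KO replicate 1, WT replicate 3 and PPARγ2KO replicate 2. The log2 fold change of B2m ranged from 1.32 to 1.60 over all alternatives and arrays left out, that of Tapbp from 0.34 to 0.77, and that of Psmb10 turned from 0.19 to -0.001 with the 75th percentile shift.

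PPARγ2KO vs. WT islets asks what PPARγ2 loss changes in leptin-intact mice. B2m was 1.45 ± 0.26 higher on the log2 scale, close to its difference in ob/ob and POKO, and Tap1 (0.00) and Tap2 (-0.01) stood at the WT level on average. Limma called 0 of 9 genes, against 0% of all probes called higher. At an unadjusted p under 0.05, 4 of 9 were higher (B2m, Psmb8, Psmb9 and Psmb10), against 4.18% of all probes. B2m read 12.24, 13.03 and 12.98, all above the WT arrays, with an unadjusted limma p of 0.000297 and an adjusted p of 0.221. It was the only 1 of 9 genes without overlap, against 4.1% of all probes, and its second probe gave 1.11 (adjusted p = 0.290). Psmb8 was 1.02 ± 0.30 (adjusted p = 0.457) and Psmb9 0.93 ± 0.32 higher (adjusted p = 0.485).

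The 3 PPARγ2KO arrays did not move together, and by the brightest probes the genes differed in which array was highest. H2-K1, H2-D1, Tap1, Tap2 and Tapbp were highest on replicate 3. Tap1 read 8.19, 8.08 and 9.24, Tap2 9.15, 8.67 and 9.78, and H2-D1 14.20, 14.15 and 14.98, so replicates 1 and 2 lay within or below the WT range and replicate 3 near the leptin-deficient ones. B2m, Psmb8, Psmb9 and Psmb10 were instead highest on replicate 2, B2m by only 13.03 against 12.98 on replicate 3, and its second probe was highest on replicate 3 (11.03, 11.08 and 11.40). Psmb8 read 10.65, 11.68 and 11.47, and Psmb9 read 9.74, 10.93 and 10.31. Replicate 2 is the array with pan leukocyte genes at the level of the leptin-deficient genotypes, and on it Tap1, Tap2 and H2-D1 had their lowest value of all 12 arrays. These orders were seen in the values and were not tested.

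**Figure D2:**
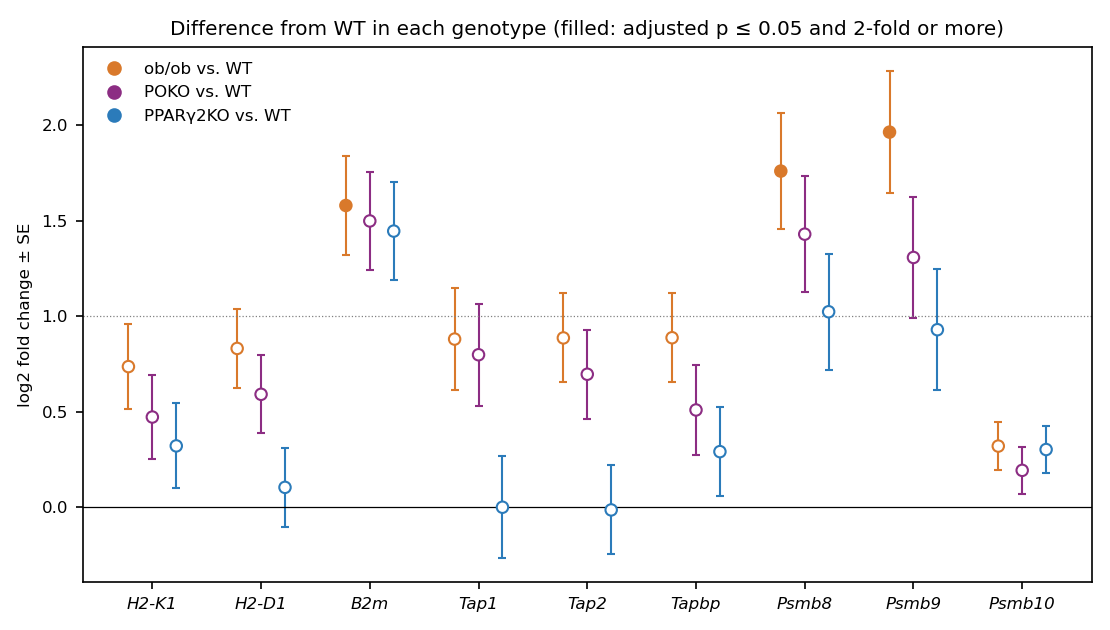
Log2 fold change (y axis, ± SE from the limma fit) of the brightest probe of each gene (x axis) in ob/ob, POKO and PPARγ2KO against the same WT arrays. Filled symbols have an adjusted p of at most 0.05 and a change of at least 2-fold, and the dotted line marks that change. B2m stands at 1.58, 1.50 and 1.45, while Tap1 and Tap2 are at 0.00 and -0.01 in PPARγ2KO.

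POKO vs. ob/ob islets asks what PPARγ2 loss changes when leptin is absent. All 9 genes were lower in POKO on average, from -0.08 (B2m, Tap1) to -0.66 (Psmb9) on the log2 scale, and limma called 0 of 9, against 0% of all probes called lower. Their median was -0.24, and 8224 of 17305 named genes were also negative. All 9 measured beta cell genes were lower too, with a median of -0.82 and 0 called. No gene reached an unadjusted p under 0.05, against 4.37% of all probes that did so on the lower side. Psmb9 differed by -0.66 with a 95% interval of -1.37 to 0.06 (adjusted p = 0.553), and B2m by -0.08 with an interval of -0.66 to 0.50, so both intervals hold differences of either sign. Within the 3 slides, POKO minus ob/ob was -0.37, -0.69 and -0.91 for Psmb9, and it was negative on all 3 slides also for H2-D1, Tap2, Tapbp, Psmb8 and Psmb10. B2m and Tap1 were higher in POKO on slide 2 (0.42 and 0.20), and H2-K1 on slide 3 (0.06). The share of all probes with the same sign on all 3 slides was not computed, so these signs are a description. For 4 genes (H2-D1, Tap2, Psmb8 and Psmb9) the POKO arrays lay below all ob/ob arrays, against 8.94% of all probes. The negative sign of these 4 genes on each slide follows from that.

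POKO vs. PPARγ2KO islets asks what leptin deficiency changes when PPARγ2 is absent. Limma called 0 of 9 genes, against 0.00486% of all probes called higher, and 3 of 9 (H2-D1, Tap1 and Tap2) had an unadjusted p under 0.05, against 4.67%. Tap1 was 0.80 ± 0.27 (adjusted p = 0.340) and Tap2 0.71 ± 0.23 higher (adjusted p = 0.336), whereas B2m differed by 0.05 ± 0.26 (adjusted p = 0.971). Only Tap2 was without overlap, against 6.25% of all probes. Without PPARγ2KO replicate 3, Tap1 and Tap2 were called, while the calls higher over all 41174 probes went from 2 to 202. In ob/ob vs. PPARγ2KO, 0 of 9 were called, against 0.00243% of all probes, and 6 of 9 had an unadjusted p under 0.05, against 8.37%. Psmb9 was 1.03 ± 0.32 (adjusted p = 0.137) and Tap2 0.90 ± 0.23 (adjusted p = 0.103) higher in ob/ob. The ob/ob arrays lay above all PPARγ2KO arrays for 5 of 9 genes, against 7.25% of all probes. There too, Tap1 and Tap2 were called without PPARγ2KO replicate 3, while the calls higher over all probes went from 1 to 410.

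The 2 by 2 layout allows the leptin-deficient genotypes to be set against the leptin-intact ones over all 12 arrays. Psmb9 (1.17 ± 0.23, adjusted p = 0.0247) and Psmb8 (1.08 ± 0.21, adjusted p = 0.0260) were called higher, 2 of 9 genes against 2.38% of all probes. With the adjusted p alone 6 of 9 passed, against 4.23%, since H2-D1, B2m, Tap1 and Tap2 joined them with log2 differences of 0.66 to 0.84, and 8 of 9 had an unadjusted p under 0.05, against 10.6%. H2-K1 (0.44, adjusted p = 0.102), Tapbp (0.55, adjusted p = 0.0657) and Psmb10 (0.11, adjusted p = 0.452) did not pass, although another H2-K1 probe gave 0.94 (adjusted p = 0.0330). The median over the 9 genes was 0.80 and that over all named genes -0.05. Only Tap2 had all 6 leptin-deficient arrays (9.83 to 10.19) above all 6 leptin-intact arrays (8.67 to 9.78), against 1.56% of all probes. This call was the more fragile one: it fell to 0 of 9 on leaving out any POKO array, ob/ob replicate 2 or 3, or WT replicate 1 or 2, and to 1 without PPARγ2KO replicate 1, and without PPARγ2KO replicate 3 Tap1 joined the 2. Over all probes 980 were called higher with all arrays and 174 to 414 in the fits with 0 of 9.

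For PPARγ2-null vs. intact genotypes limma called 0 of 9 genes, against 0% of all probes, and only B2m had an unadjusted p under 0.05 (higher in the null genotypes by 0.68 ± 0.18, adjusted p = 0.927), against 1.81% of all probes on that side. The interaction compares the effect of PPARγ2 loss between leptin-deficient and leptin-intact mice. By the brightest probes it was negative for all 9 genes, from -0.08 (Tap1) to -1.59 (Psmb9), and 0 of 9 were called, against 0% of all probes. B2m (-1.53 ± 0.37, adjusted p = 0.255), Psmb9 (-1.59 ± 0.45, adjusted p = 0.266), Psmb8 (-1.35 ± 0.43, adjusted p = 0.275) and Psmb10 (-0.43 ± 0.17, adjusted p = 0.326) had an unadjusted p under 0.05, against 6.36% of all probes on the negative side. The dimmer Tapbp probe gave 0.20, against -0.67 by the brighter one. A difference of this effect between the backgrounds was thus not established for any of the genes.

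None of the other core proteasome genes was called. Of 14 other 20S genes (the structural α subunits and the constitutive β subunits), 0 were called in ob/ob vs. WT in either direction. Of all 41174 probes, 1467 were called higher and 786 lower, so 0 of 14 does not set these genes apart. The log2 fold change was negative for 12 and positive for 2, against 9708 negative of 17305 named genes. The median was -0.15, against -0.06. Psmb5 (-0.28, adjusted p = 0.0812) and Psmb2 (-0.37, adjusted p = 0.118) had the smallest p. The immunosubunits can be read against the constitutive subunits whose place they take, by subtracting the log2 signals on each array and setting the WT mean to 0. Psmb8 over Psmb5 was -0.37 to 0.64 in WT, 0.22 to 1.19 in PPARγ2KO, 1.80 to 2.22 in ob/ob and 1.55 to 1.62 in POKO. Psmb9 over Psmb6 was -0.39 to 0.46, 0.32 to 1.27, 1.64 to 2.82 and 1.35 to 1.49 in the same order. Psmb10 over Psmb7 was -0.19 to 0.11, -0.04 to 0.04, 0.27 to 0.75 and 0.15 to 0.45.

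In all 3 pairs the 6 leptin-deficient arrays lay above the 6 leptin-intact arrays, although for Psmb10 over Psmb7 the gap was small (0.15 against 0.11). The same held for 12.3% of named genes set over Psmb5, 8.47% over Psmb6 and 8.26% over Psmb7, which gives the background of these ratios. The mean difference between leptin-deficient and leptin-intact arrays was 1.39, 1.50 and 0.43 for the 3 pairs. The counterparts were themselves lower in the leptin-deficient genotypes, Psmb5 by -0.31 (adjusted p = 0.0308), Psmb6 by -0.32 (adjusted p = 0.0608) and Psmb7 by -0.32 (adjusted p = 0.0384), and for Psmb10 over Psmb7 that is more than the 0.11 of Psmb10 itself. These ratios are descriptions, were formed with the values of the single genes known, and were not tested. They are ratios of probe signals relative to WT and not amounts of one subunit per another.

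**Figure D3:**
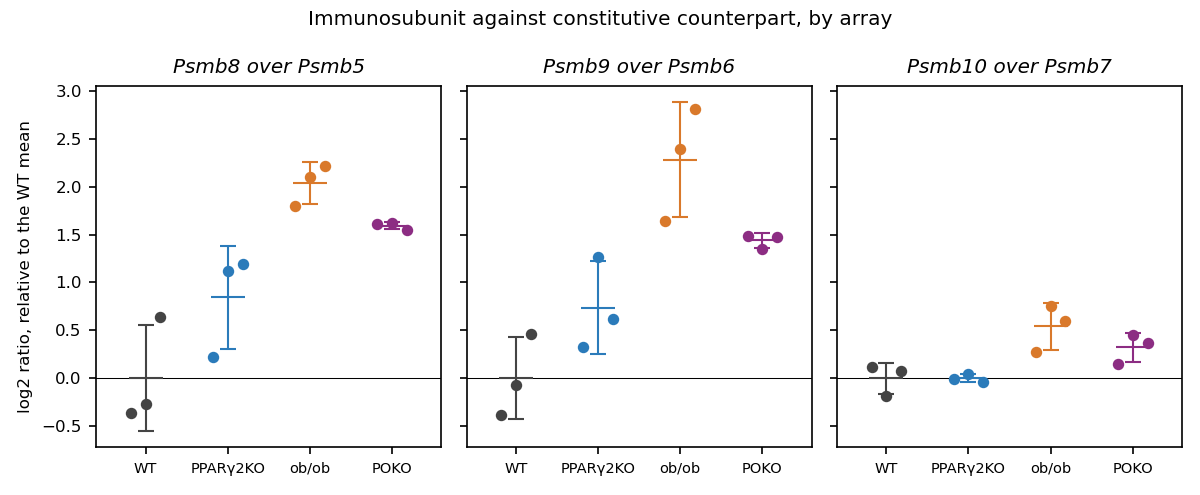
Log2 ratio of each immunosubunit over its constitutive counterpart on each array (y axis, WT mean set to 0) in the 4 genotypes (x axis), with means and SDs (n = 3). The ob/ob arrays reach 2.82 for Psmb9 over Psmb6, the 6 leptin-deficient arrays lie above the other 6 in each panel, and Psmb10 over Psmb7 stays at or below 0.75.

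Genes around the core pathway were described from lists chosen with earlier results of these data known. In ob/ob vs. WT the proteasome activator subunits Psme2 (0.82 ± 0.17, adjusted p = 0.0270) and Psme1 (0.70 ± 0.19, adjusted p = 0.0465), which open the 20S core, were the 2 of 7 activator and assembly genes that passed the adjusted p, and 0 of 7 were called. Among 7 genes of peptide trimming and loading in the endoplasmic reticulum, 0 were called and 2 passed the adjusted p: the chaperone Hsp90b1 (0.96 ± 0.19, adjusted p = 0.0246) and Tapbpl, which edits class I peptides (0.65 ± 0.13, adjusted p = 0.0270). For both lists the shares over all probes were 4.92% higher by the adjusted p alone and 3.56% called higher. Of 16 other class I and class I like genes, 4 were called higher and 0 lower, against 3.56% of all probes called higher. These were H2-T22 (1.05, adjusted p = 0.0166), H2-Q8 (1.73, adjusted p = 0.0270), H2-M3 (1.26, adjusted p = 0.0305) and H2-T23, which presents leader peptides to NKG2A receptors (1.26, adjusted p = 0.0311). With the adjusted p alone 7 of 16 passed, all higher, against 4.92% of all probes. Probes of these genes share the uncertainty given above for the heavy chains.

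Of 26 measured regulators of class I transcription, 6 were called higher and 0 lower, against 3.56% of all probes called higher. By the adjusted p alone 8 were higher, against 4.92% of all probes, and 1 was lower, against 2530 of 41174 probes. Irf1, a direct activator of class I promoters, rose by 1.18 ± 0.23 (adjusted p = 0.0248), Irf7 by 1.98 ± 0.40 (adjusted p = 0.0267) and Irf8, a factor of myeloid and B cells, by 1.58 ± 0.40 (adjusted p = 0.0389). Ciita, the class II transactivator, was well above background on 0 of 3 WT arrays and on all ob/ob arrays. Its estimated fold was 16.9 (adjusted p = 0.0331). Ifnb1, which encodes interferon β, was well above background on 1 of 3 ob/ob arrays and 0 of 3 WT arrays, so no fold is given. For genes not above background in WT, the fold compares the ob/ob mean with the WT signal. Where higher, the lowest signal called well above background on the WT array was used in place of the WT signal. That lowest signal was 1.35 to 1.36 (log2), below the Ciita WT mean of 2.4. These folds are therefore estimates and not lower limits.

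Of the interferon stimulated genes 15 of 19 were called higher and 0 lower, against 3.56% of all probes called higher, and their median of 1.82 was the highest of the pathway lists. The largest measured changes with WT above background were those of Iigp1 (2.81), Ifit3 (2.55), Gbp6 (2.47), Ifit2 (2.38), Ifi44 (2.21), Oasl2 (2.17) and Ifit1 (2.15). Igtp, Gbp3, Gbp2, Isg15, Usp18, Irgm1 and Cxcl10 rose by 1.22 to 1.90. Cxcl9, a chemokine that draws T cells and is induced by interferon γ, was well above background on 0 of 3 WT arrays. Its fold, estimated as for Ciita, was 48 (adjusted p = 0.0431). Gbp6 and Ifit2 were the 2 of these genes also called in POKO vs. WT (1.90, adjusted p = 0.0314, and 2.34, adjusted p = 0.0229). That is against 0.151% of all probes called higher in that comparison, where the median of the 19 genes was 1.70. Over the same arrays the mean log2 signal of the list was 7.89 to 8.43 in WT, 8.52 to 9.63 in PPARγ2KO, 9.94 to 10.37 in ob/ob and 9.78 to 10.14 in POKO.

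**Figure D4:**
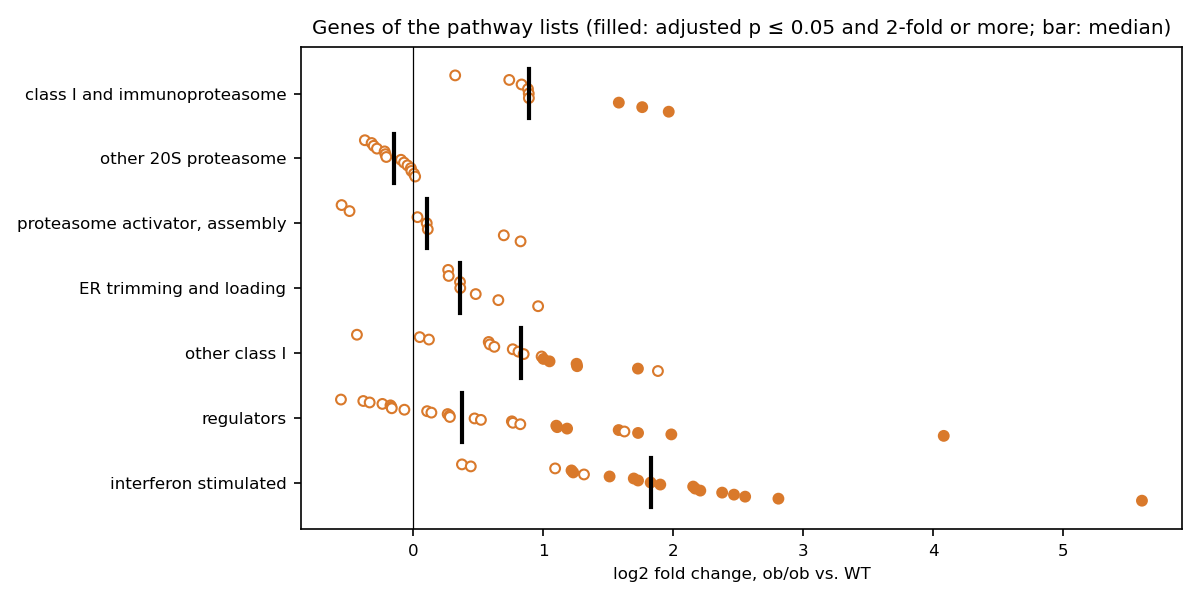
Log2 fold change in ob/ob vs. WT (x axis) of every measured gene (points) of the 9 core genes and of 6 surrounding lists (y axis). Filled points have an adjusted p of at most 0.05 and a change of at least 2-fold and vertical bars are list medians, which run from -0.15 for the other 20S proteasome genes to 1.82 for the interferon stimulated genes.

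Genes of leukocytes rose on the same arrays. In ob/ob vs. WT, 6 of 8 pan leukocyte, 8 of 11 T cell, 5 of 10 B cell and 4 of 8 endothelial genes were called higher, against 3.56% of all probes, and 0 of 9 macrophage and dendritic cell genes were. Ptprc, the common leukocyte antigen, rose by 4.37 ± 0.94 (adjusted p = 0.0292). Csf1r, of macrophages, gave 1.09 ± 0.39 (adjusted p = 0.0955), and the Cd3e probe went the other way (-1.48 ± 0.58, adjusted p = 0.118) while Cd3d and Cd3g were called higher. On WT arrays 3 to 5 of 11 T cell genes were above background, against 10 or 11 in ob/ob. The summed signal of the T cell genes was 468 to 493 in WT and 1219 to 3321 in ob/ob, that of the B cell genes 1537 to 1707 and 3614 to 6697, and that of the endothelial genes 2895 to 7559 and 8817 to 11950. The sums of the macrophage and dendritic cell genes overlapped, at 4207 to 5037 and 1948 to 7690. In leptin-deficient vs. leptin-intact genotypes 2 of these 9 genes (Csf1r and Fcgr1) were called higher, against 2.38% of all probes, and 3 had a negative difference. Leukocytes are known to carry class I molecules and immunoproteasomes at high level, and their part in the results above was not tested.

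Array by array, the leukocyte and class I values did not always go together. The mean log2 signal of the 8 pan leukocyte genes was 5.86, 9.16 and 6.54 on PPARγ2KO replicates 1 to 3. On replicate 1, where it was below all WT arrays (6.00 to 6.42), B2m read 12.24 against at most 11.51 in WT, while Psmb9 (9.74) lay within the WT range. On replicate 2, where it stood at the level of the POKO arrays (9.01 to 9.86), Psmb9 (10.93) was above all POKO arrays and Tap2 (8.67) and H2-D1 (14.15) were below all WT arrays. On replicate 3, where it was just above the WT arrays, H2-D1 (14.98) and Tap2 (9.78) stood above all WT arrays. Each of these statements rests on a single array.

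**Figure D5:**
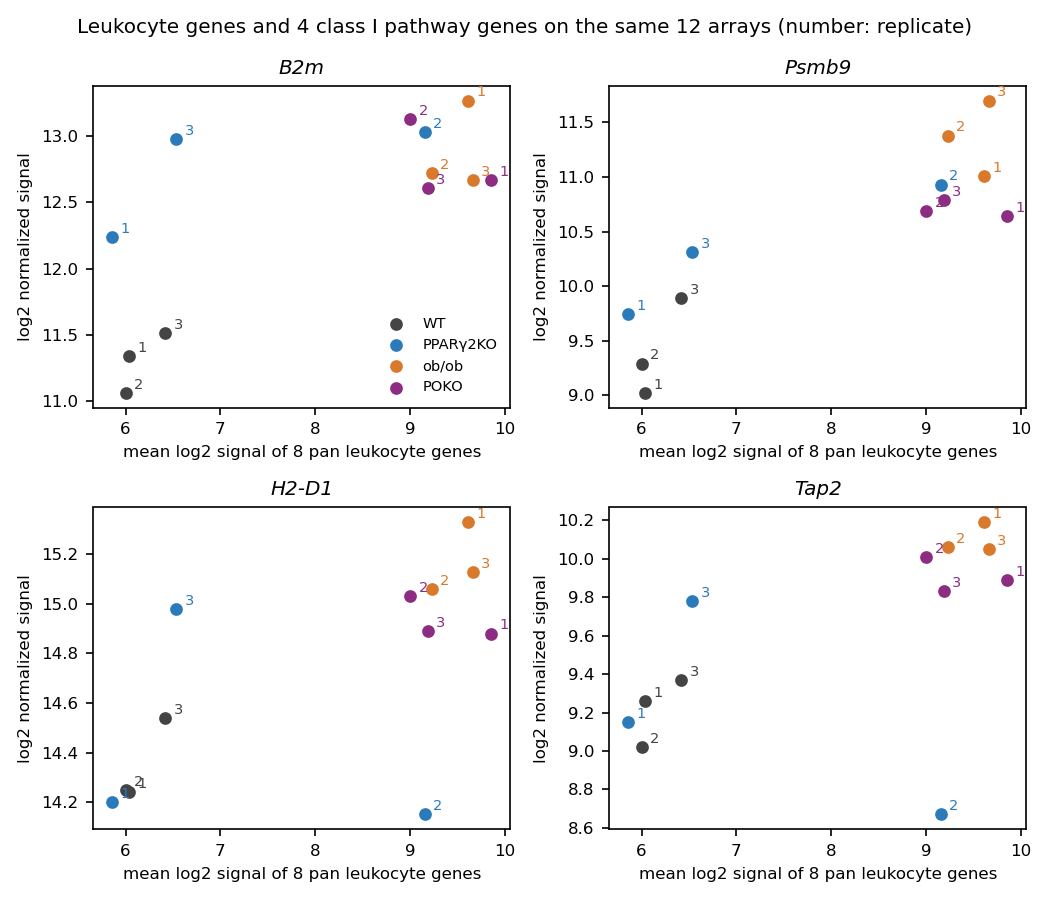
Log2 normalized signal of B2m, Psmb9, H2-D1 and Tap2 (y axes) against the mean log2 signal of 8 pan leukocyte genes (x axis) on the 12 arrays, with the replicate number beside each point. The WT arrays and PPARγ2KO replicates 1 and 3 lie below 7 on the x axis and the other 7 arrays above 9. PPARγ2KO replicate 2 is among the latter and has the lowest H2-D1 and Tap2 signal of all arrays.

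The 9 genes were also set against each other over the 12 arrays. Pearson correlations of the 36 pairs, given as a description over arrays that share genotype, slide and scaling, ran from 0.102 (Tap1 with Psmb10) to 0.965 (Psmb8 with Psmb9), with a median of 0.72. High values were also those of H2-D1, Tap1 and Tap2, with 0.963 for H2-D1 with Tap2 and 0.961 for Tap1 with Tap2. Tap1 and Psmb9 start 226 bases apart on opposite strands, and their correlation was 0.608, below that of Tap1 with H2-D1 (0.948). Psmb10, encoded outside chromosome 17, correlated most with B2m (0.703). B2m was nearer to Psmb8 (0.89) than to the heavy chains H2-K1 (0.791) and H2-D1 (0.65) with which its product pairs.

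Across the array, the genes with the profile most like each called gene were sought among 11761 named genes above background on all arrays, by the root mean square difference of the mean-centred log2 values over 12 arrays. For B2m they were the class I gene H2-Q8 (0.20), the RNA sensor Dhx58 (0.24) and the Ly6 family gene Ly6c1 (0.25). For Psmb8 they were the cytokine subunit Ebi3 (0.16), Plekho1 (0.19) and the actin regulator Wipf1 (0.20). For Psmb9 they were Tmem121 (0.15), Stmn3 (0.17) and again Ebi3 (0.19). For comparison, the SD of the called genes over the 12 arrays was 0.74, 0.77 and 0.82.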

How the data were processed

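RNA of islet pools was read on 12 arrays, which were grouped by the genotype in the labels. The deposited scanner files hold an intensity for each spot, which per the labels was extracted with Agilent Feature Extraction 10.1.1.1 and which is already background-corrected. The authors also deposited normalized log2 values, used here only as an alternative. Control spots (1639 per array) and 919 outlier spots over all arrays were left out, and 0 spots were saturated. The processed signals of 43379 spots per array were quantile-normalized over the 12 arrays and log2-transformed, and spots of a probe were averaged, with R 4.3.3 and limma 3.58.1. Quantile normalization gives every array the same distribution, so a shift of most probes in one direction would not be seen. A symbol was found for 25097 of 41174 probes (17305 genes). The brightest probe over the 12 arrays stands for its gene.

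A limma model (lmFit, contrasts.fit, eBayes) on genotype alone gave the 6 pairwise comparisons, both main effects and the interaction. P-values were two-sided and were adjusted by Benjamini-Hochberg over all probes. They measure the spread between arrays, in which pool, labelling and hybridisation are not separated, and not that between animals. The study's methods name the array as a blocking variable. Each slide holds 1 array of each genotype and matches the replicate number, so a block was fitted on that number as an alternative. The array position on a slide is fixed per genotype, and position and genotype cannot be told apart. The other alternatives were a shift to the 75th percentile, normexp background correction (offset 50), a filter on dim probes, outlier spots kept, only the compared genotypes in the fit, array weights, the authors' values, no fold criterion, a gene's probes averaged, and each array left out. The code was run on simulated data with known changes and independent noise, which checks the estimated changes and not the rate of calls in these data.

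The genes and lists were chosen with earlier results of these data known. By the rule for named genes, the text names all core genes, the genes of each list that were called in ob/ob vs. WT or otherwise the 2 with the smallest p, the 3 genes with the profile most like each called gene, and the markers Ptprc, Cd3e and Csf1r. Some genes that the rule picks are not reported here. Other genes were named after their values were seen, among them Cd3d and Cd3g. The number of arrays limits the precision.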

Additional observations from a re-analysis of the deposited data

How the results depend on the processing

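All counts here are of the 9 genes called. In ob/ob vs. WT the count of 3 went to 1 (B2m) when only the compared genotypes were fitted and to 6 without the fold criterion, and ranged from 0 to 4 on leaving out single arrays. Over all probes the calls higher went from 1467 to 423 and 2025 in the first 2 of these settings. In POKO vs. WT the count of 0 went to 2 with the filter on dim probes, 1 with only the compared genotypes, 3 with array weights and 1 with the authors' values, and ranged from 0 to 2 on leaving out arrays. Over all probes the calls higher went from 62 of 41174 to 428 of 24309, 337, 1347 and 97 in the same order. In ob/ob vs. PPARγ2KO the count of genes called went from 0 to 1 (Psmb9) with array weights, where the calls higher over all probes went from 1 to 445. It ranged from 0 to 2 on leaving out arrays, as in POKO vs. PPARγ2KO. In leptin-deficient vs. leptin-intact genotypes the count of 2 went to 1 with the 75th percentile shift and to 6 without the fold criterion, and ranged from 0 to 3 on leaving out arrays. There the calls higher over all probes went from 980 to 1366 with the shift and 1741 without the fold criterion. The log2 fold change of Psmb10 in POKO vs. WT turned from 0.19 to -0.001 with the 75th percentile shift, which moved the all-probe median of that comparison from -0.08 to -0.16 and that of ob/ob vs. WT from -0.08 to -0.19. The causes were not tested. In PPARγ2KO vs. WT, POKO vs. ob/ob, PPARγ2-null vs. intact and the interaction the count stayed at 0 under every alternative run.

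The main fit did not pair the arrays by replicate number, although that number matches the slide. After centring within each genotype, same-numbered arrays correlated at -0.32 to 0.28 (18 pairs, 5 over 0.1), and 3 of 12 arrays correlated best with their own number. Since each genotype has only 3 arrays, these correlations cannot exclude an effect of the slide. With the replicate number as a block the counts stayed at 3 in ob/ob vs. WT, 2 in leptin-deficient vs. leptin-intact and 0 in POKO vs. WT. Over all probes the block moved POKO vs. WT from 62 higher and 9 lower to 6 and 1. The fit to the compared genotypes alone does not apply to the main effects and the interaction, which use all 4 genotypes.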
